A study of Mus musculus with 6 samples.

Results

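The genes described here encode the clotting factors of blood plasma, fibrinogen, the kinin system, the natural anticoagulants, the enzymes of the vitamin K cycle and a few receptors and vessel wall proteins that act with them. They are 33 mouse genes chosen by symbol, and each symbol was matched to its row in the deposited gene count table, which has 55802 rows. All 33 had a row and all 33 passed the filter on low counts. The livers came from wild-type C57BL/6 mice. The CCl4 group (3 libraries) received carbon tetrachloride, which injures hepatocytes after their own enzymes turn it into a radical, and the oil group (3 libraries) was given oil. The series presents the treatment as a model of liver fibrosis. The labels give no dose, duration or age, and they do not say if each library is a mouse of its own, so p-values here reflect only the spread among libraries, some of which may be technical.

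Blood clots when tissue factor meets factor VII at a wound, or when factor XII is activated on a surface. Both routes run through a chain of serine proteases to thrombin, which cuts fibrinogen to fibrin, and plasmin later dissolves the clot. Hepatocytes make most of these plasma proteins, and several of them need a carboxylation that depends on vitamin K before they can bind membranes. The anticoagulant receptors thrombomodulin and the endothelial protein C receptor, as well as factor VIII and von Willebrand factor, come mainly from endothelial cells, and the catalytic subunit of factor XIII comes from macrophages and platelets. The comparison asks how the transcripts of this system stand in the CCl4-treated liver.

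Library totals ran from 18929972 to 20042731 counts. CCl4 replicate 3 stood apart from CCl4 replicates 1 and 2: log2 CPM (counts per 1000000 of the scaled library total) correlated at 0.985 in each of its pairs and at 0.993 between replicates 1 and 2. Results that rest on it are given with and without it. Hepatocyte markers summed to 102319.5 to 106392 CPM in CCl4 livers and 100359 to 107503 CPM in oil livers, and of 7 tested 2 were called higher and 3 lower. Their median log2 fold change was -0.24. Most of each sum came from the albumin gene, so the sums say little of the other markers. Albumin, Alb, the plasma protein that defines hepatocytes, stood at 75629.8, 72303 and 73980.1 CPM in CCl4 livers and 68448, 71332 and 75620.4 CPM in oil livers, and it was not called (log2 fold change 0.043, adjusted p = 0.655). In bulk RNA, fewer cells of a type and less RNA per cell cannot be told apart.

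Of the 33 coagulation genes, 7 were higher and 7 lower in CCl4 livers at an adjusted p under 0.05 (edgeR's quasi-likelihood test, Benjamini-Hochberg adjustment over all genes), and such genes are called in what follows. That is 42.4% of the members, against 41.3% of the 15579 genes tested. The shares by direction were 21.2% higher and 21.2% lower among the members, against 21.2% and 20.1% of all genes, so neither share stood far from the background. The changes were small. The median size of the log2 fold change, whatever its sign, was 0.144 for the members and 0.277 for all genes tested, and 23 of 33 members lay within 0.25 on the log2 scale (69.7%, against 46.6% of all genes). Only F11 and F13a1 changed by more than 1 on that scale. The members and all genes were not matched for expression level, and estimates of rare genes are less precise. The part of level in the smaller sizes among the members was not tested. The signed median was 0.051 for the members and 0.00056 for all genes.

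By textbook site of synthesis, 22 members are made by hepatocytes, 8 mainly by other cells and 3 by both. Of the hepatocyte genes, 2 were higher (Kng1 and Cpb2) and 6 lower (F5, F11, F12, Klkb1, Proc and Proz), with a median of -0.089. Of the genes of other cells, 4 were higher (F13a1, Tfpi, Procr and Thbd) and 0 lower, with a median of 0.30. The shares were 9.1% higher and 27.3% lower among the hepatocyte genes, and 50% and 0% among those of other cells. Over all genes they were 21.2% and 20.1%. With 1 library left out in turn, 1 to 7 of the hepatocyte genes were called higher and 3 to 6 lower. Of the genes of other cells, 1 to 4 were then higher and 0 lower. Without CCl4 replicate 3 the hepatocyte genes leaned the other way. Then 7 were higher (Kng1, Cpb2, Fga, Fgb, Fgg, Serpina10 and Serpinf2), and F5, F11, F12, Klkb1 and Proc were lower. Library size alone gave 5 hepatocyte genes higher and 3 lower. The shared genes Pros1 and Ggcx were called in opposite directions. CPM ranges of the groups did not overlap for 6 members above oil and 11 below it, while 54.0% of all genes did not overlap, 27.6% above and 26.4% below.

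The counts depended on the scaling and on single libraries. Upper quartile scaling called 8 members higher and 3 lower, and library size alone called 11 and 3, where it also shifted the median of all genes to 0.147. Both scalings tilted all genes too. Over all genes, 65.3% of the calls were higher with upper quartile scaling and 74.2% with library size alone, against 51.4% in the main fit. Without CCl4 replicate 3, 12 members were higher and 5 lower. Of these member calls 70.6% were higher, against 51.6% of the calls over all genes in that fit. The calls of F11, Klkb1, Kng1, Proc and Thbd held in all 14 alternatives tried. In lists of further genes that act around this system, 23 of 56 tested genes were higher and 11 lower, which is 60.7%, against the same 41.3% of all genes. By direction, 41.1% were higher and 19.6% lower, against 21.2% and 20.1% of all genes. These lists were chosen with earlier results of these data known, so their shares only describe the lists and were not tested.

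**Figure D1:**
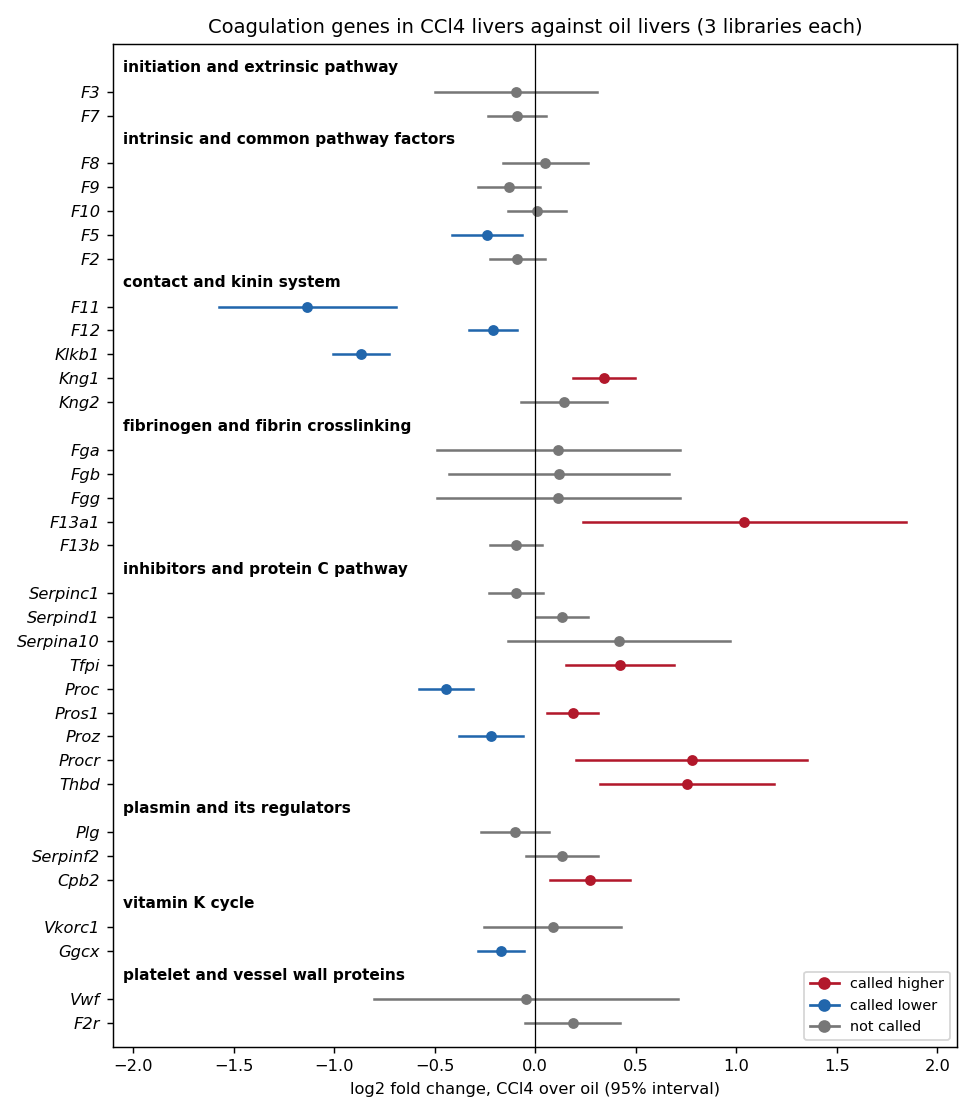
Log2 fold change of each coagulation gene, CCl4 over oil, with its 95% interval from 3 libraries per group, grouped by role; red was called higher, blue called lower and grey not called. F11 and Klkb1 lie farthest to the left at -1.13 and -0.87, F13a1 farthest to the right at 1.04, and most other genes lie near 0.

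Levels of different genes were compared as CPM per kilobase of exon. In oil livers the 22 genes of hepatocytes took the first 22 places in this order, and the genes of other cells stood below them. The fibrinogen chain genes led, with Fga at 1858 ± 574 in CCl4 livers and 1714 ± 147 in oil livers (mean ± SD, n = 3 each) on this per-length scale. Fgg, which encodes the γ chain, stood at 1809.7 ± 558 in CCl4 livers and 1671 ± 157 in oil livers. Fgb, for the Bβ chain, stood at 1437 ± 415 in CCl4 livers and 1324 ± 121 in oil livers. Next came the kininogen gene Kng1 at 884 ± 46.4 in CCl4 livers and 696 ± 31.0 in oil livers, then plasminogen, Plg, at 539 ± 41.5 in CCl4 livers and 578 ± 24.6 in oil livers. Prothrombin, F2, took place 7 in both groups. At the bottom stood F13a1, at 0.333 ± 0.112 in CCl4 livers and 0.161 ± 0.0730 in oil livers per kilobase.

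Several neighbours in the order of oil livers were not separated by their libraries: Fga and Fgg, Proc and Cpb2, F10 and Kng2, F13b and F5, F9 and Proz, the run of Klkb1, F11, Serpina10 and F7, and the run of F3, Tfpi and F8. In CCl4 livers the order shifted little. Klkb1 took place 21 in CCl4 livers, against 19 in oil livers, F11 place 22, against 20, and Serpina10 place 17, against 21. These lengths count every annotated exon of a gene, also those of rare transcripts, and a gene with long exons of that kind stands lower than its main transcript would. The lengths used ran from 840 bases for Vkorc1 to 16064 for Vwf.

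**Figure D2:**
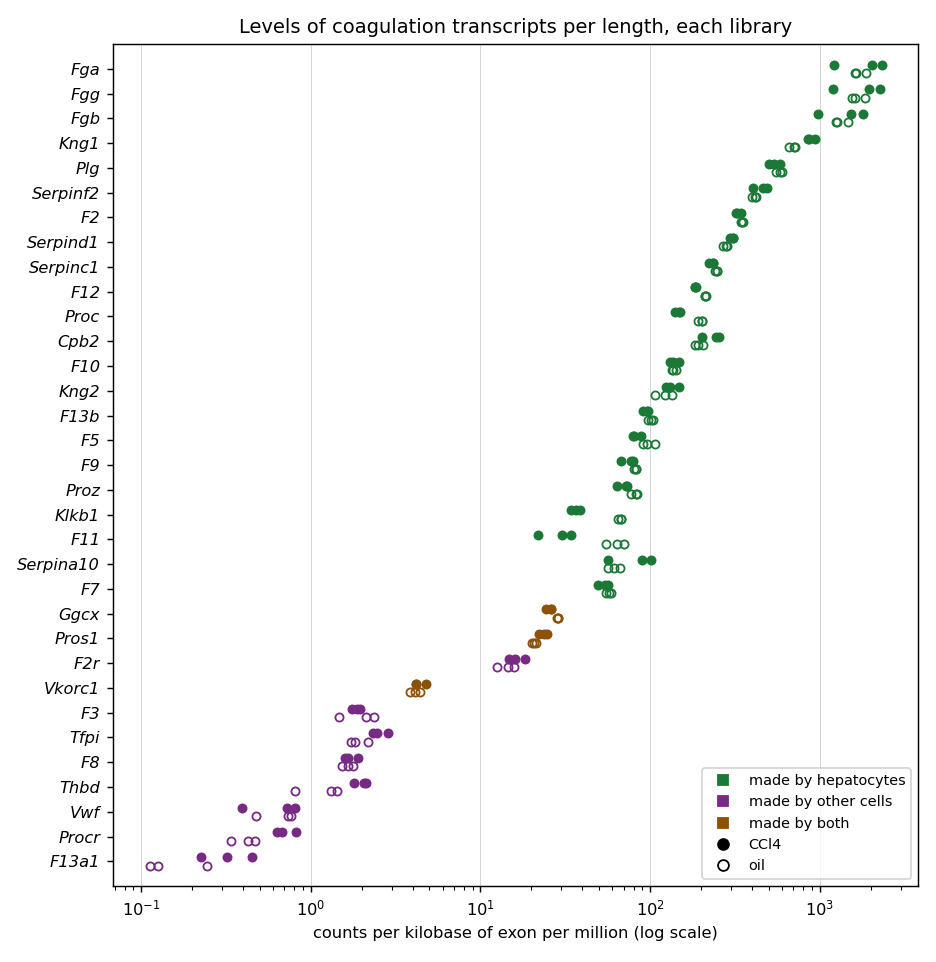
CPM per kilobase of exon (log axis) of each coagulation gene, in each CCl4 library (filled) and each oil library (open), ordered by the mean of oil livers and coloured by textbook site of synthesis. The hepatocyte genes fill the first 22 places, led by the fibrinogen chains, and F13a1 is last.

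The contact and kinin system held the largest falls. Its proteases factor XII, plasma prekallikrein and factor XI activate each other on charged surfaces, and prekallikrein and factor XI circulate bound to high molecular weight kininogen, from which kallikrein frees bradykinin. Of its 5 genes, 3 were lower (F11, Klkb1 and F12), 1 was higher (Kng1) and Kng2 was not called. That is 60% lower and 20% higher, against 20.1% and 21.2% of all genes. F11, factor XI, stood at 67.8, 76.4 and 49.0 CPM in CCl4 livers, against 157, 123 and 143 CPM in oil livers. All 3 CCl4 libraries lay below all oil libraries. The fall was 2.19-fold (log2 fold change -1.13, SE 0.18, adjusted p = 0.0038, 95% interval -1.57 to -0.69).

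Klkb1, which encodes plasma prekallikrein, stood at 204, 192 and 180.2 CPM in CCl4 livers, against 355, 341 and 354 CPM in oil livers. Here too the groups were far apart, and the spread within each was small. Klkb1 fell 1.82-fold (log2 fold change -0.87, SE 0.063, adjusted p = 1.36e-05, 95% interval -1.01 to -0.72), the smallest adjusted p among the members. Its annotated exons share 43.2% of their bases with a transcript model on the same strand, Gm45753, which held 3 counts in all. The sources used here do not say how reads in shared bases were counted.

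F11 and Klkb1 arose from a common ancestor gene and are direct neighbours on chromosome 8 in the RefSeq annotation, with no other protein-coding gene between them. They fell together, so the 250 bases before their annotated start sites are shown (RefSeq, GRCm38.p6). F11 lies at chr8:45262032-45262281 (minus strand) and Klkb1 at chr8:45294836-45295085 (minus strand). Capitals mark matches to TTGCNNAA, a core that C/EBP factors bind, or to CTGGGAA, the core of elements that respond to interleukin-6, each searched on both strands.
F11: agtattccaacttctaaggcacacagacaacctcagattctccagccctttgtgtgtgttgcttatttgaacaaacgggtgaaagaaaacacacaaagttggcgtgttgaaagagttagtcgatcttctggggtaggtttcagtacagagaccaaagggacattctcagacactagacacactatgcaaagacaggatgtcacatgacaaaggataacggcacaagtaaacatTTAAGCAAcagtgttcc
Klkb1: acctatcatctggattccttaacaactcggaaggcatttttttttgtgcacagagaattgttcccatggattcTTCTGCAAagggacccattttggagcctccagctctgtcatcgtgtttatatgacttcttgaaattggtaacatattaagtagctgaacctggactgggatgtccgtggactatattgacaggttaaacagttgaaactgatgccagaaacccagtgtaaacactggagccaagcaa
Each window holds the C/EBP core in reverse, 10 to 17 bases before the start of F11 and 170 to 177 bases before that of Klkb1. Of 32851 mouse promoter windows of this length, 9.56% hold that core and 9.10% the interleukin-6 type element, and 27 of the 33 members have an entry. These are letter matches and show no binding.

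F12, factor XII, stood at 365, 359 and 358 CPM in CCl4 livers, against 419, 416 and 415 CPM in oil livers. The 3 values of each group lay close together and the groups did not overlap. F12 fell (log2 fold change -0.21, SE 0.053, adjusted p = 0.0112), and the call was lost with upper quartile scaling and with library size alone, and without CCl4 replicate 2 (adjusted p from 0.0507 to 0.39).

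Kng1, a kininogen gene, moved the other way. It had 3044, 2761 and 2814 CPM in CCl4 livers, against 2338, 2149 and 2305 CPM in oil livers, and every CCl4 library lay above every oil library. The rise was 1.27-fold (log2 fold change 0.34, SE 0.069, adjusted p = 0.0033). Kng2, its neighbour on chromosome 16 and near copy in the mouse, stood at 405, 359 and 341 CPM in CCl4 livers and 337, 294 and 368 CPM in oil livers. Those groups overlapped, and Kng2 was not called (log2 fold change 0.14, SE 0.094, adjusted p = 0.254, 95% interval -0.068 to 0.36). Reads that match both copies may have been split or dropped, so their separate values are uncertain. The log2 ratio of Kng2 to Kng1 counts was -2.91, -2.94 and -3.05 in CCl4 livers and -2.79, -2.87 and -2.65 in oil livers, a difference of -0.20 with groups that did not overlap (two-sided exact permutation test, p = 0.1, the smallest that 3 against 3 can give).

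**Figure D3:**
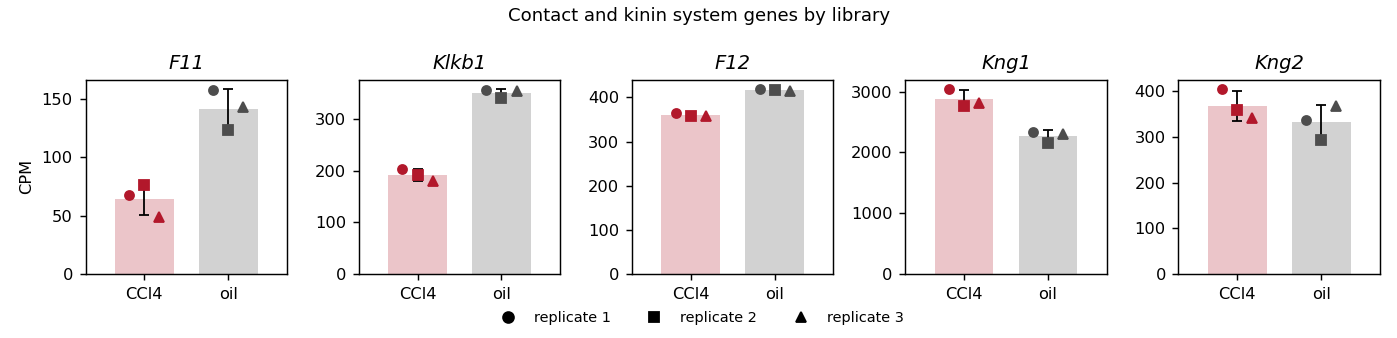
CPM of the contact and kinin genes in each library (points; shape gives the replicate number), with the group mean (bar) and SD (error bar, n = 3). F11, Klkb1 and F12 are lower and Kng1 higher in every CCl4 library than in any oil library, and the Kng2 groups overlap.

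Around the kinin system, 3 of 7 tested genes of kinin receptors and kinin-degrading or contact-regulating proteins were higher and 2 lower (median 0.46). In shares, 42.9% were higher and 28.6% lower, against 21.2% and 20.1% of all genes. Ace, the peptidase that inactivates bradykinin and makes angiotensin II, had the largest rise, with 2.67, 2.62 and 3.49 CPM in CCl4 livers and 1.44, 1.13 and 0.636 CPM in oil livers (log2 fold change 1.45, SE 0.29, adjusted p = 0.00298). Cpn1, the catalytic subunit of the carboxypeptidase that trims kinins in plasma, fell by 0.26 (SE 0.06, adjusted p = 0.0063). Cpn1 was no longer called with library size alone (adjusted p = 0.175). Serping1, the C1 inhibitor that blocks kallikrein and factor XII, had the highest CPM of the list, at 796, 728 and 591 CPM in CCl4 livers and 819, 778 and 717 CPM in oil livers, with no call (log2 fold change -0.13, adjusted p = 0.364).

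Neither gene of the initiating complex was called. F3, tissue factor, stood at 4.74, 4.40 and 4.96 CPM in CCl4 livers and 5.38, 3.73 and 5.94 CPM in oil livers, with overlapping groups (log2 fold change -0.094, SE 0.18, adjusted p = 0.708). F7, the protease that tissue factor activates, had 101, 106 and 91.6 CPM in CCl4 livers and 109, 102 and 106 CPM in oil livers (log2 fold change -0.089, SE 0.064, adjusted p = 0.296). The interval of the F7 difference ran from -0.23 to 0.054 on the log2 scale.

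Of the 5 factors of the intrinsic and common pathways, F5 alone was called, which is 20%, against 41.3% of all genes. Factor V is the cofactor that speeds the conversion of prothrombin. F5 had 656, 593 and 599 CPM in CCl4 livers, against 708, 678 and 796 CPM in oil livers, with no overlap. It fell (log2 fold change -0.24, SE 0.077, adjusted p = 0.0318), and lost the call with upper quartile scaling and with library size alone, and without CCl4 replicate 2, oil replicate 1 or oil replicate 3 (adjusted p from 0.063 to 0.327). Prothrombin, F2, stood at 1569, 1490.5 and 1470.1 CPM in CCl4 livers and 1610.4, 1577 and 1629 CPM in oil livers. Those groups did not overlap either, but the difference was small and was not called (log2 fold change -0.089, SE 0.061, adjusted p = 0.272).

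F9, the protease deficient in haemophilia B, stood at 218, 210.1 and 185 CPM in CCl4 livers and 226, 219.5 and 226 CPM in oil livers (log2 fold change -0.13, SE 0.069, adjusted p = 0.162). F10, the protease that makes thrombin, had 403, 374 and 360.2 CPM in CCl4 livers and 391, 373 and 367 CPM in oil livers (log2 fold change 0.0078, SE 0.064, adjusted p = 0.935). The F10 groups overlapped and the estimate was close to 0, with a 95% interval of -0.14 to 0.15. F8, the cofactor deficient in haemophilia A and made by endothelial cells, stood at 16.3, 15.8 and 18.8 CPM in CCl4 livers and 16.5, 17.5 and 15.2 CPM in oil livers (log2 fold change 0.051, SE 0.095, adjusted p = 0.698). The F9 groups did not overlap, with every CCl4 library below every oil library. F9 was not called, however, and its estimate was 0.015 with library size alone. No direction could be given for F10 or F8.

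F7, F10 and Proz stand next to each other on chromosome 8. Their log2 fold changes were -0.089, 0.0078 and -0.22, and of the 3 Proz was called.

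The 3 fibrinogen chains kept nearly the same proportions in every library, and all were lowest in CCl4 replicate 3. Fibrinogen is built from paired Aα, Bβ and γ chains, and its genes, Fga, Fgb and Fgg, stand side by side on chromosome 3. Fga had 6996, 6116 and 3662 CPM in CCl4 livers, against 5672, 4888 and 4920.4 CPM in oil livers. In CCl4 replicates 1 and 2 it was above every oil library, and in CCl4 replicate 3 below every oil library. Fgb had 6832, 5853 and 3735 CPM in CCl4 livers, against 5574, 4752 and 4803 CPM in oil livers. Fgg had 4775, 4088 and 2499.7 CPM in CCl4 livers, against 3862, 3401 and 3226 CPM in oil livers. Within the CCl4 group the order of the libraries was the same for all 3 genes, and each had its lowest value of all 6 libraries in CCl4 replicate 3.

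None of the chains was called over the 6 libraries, with log2 fold changes of 0.12 for Fga, 0.12 for Fgb and 0.12 for Fgg (adjusted p = 0.74, 0.709 and 0.74). Without CCl4 replicate 3 all 3 were called higher, by 0.35 for Fga (adjusted p = 0.00739), 0.33 for Fgb (adjusted p = 0.0145) and 0.34 for Fgg (adjusted p = 0.0135). Together the chains took 1.91, 1.68 and 1.06% of all counts in CCl4 replicates 1, 2 and 3, against 1.44, 1.25 and 1.22% in the oil ones (two-sided exact permutation test, p = 0.4). The log2 ratio of Fga to the mean of Fgb and Fgg counts was 0.27, 0.30 and 0.23 in CCl4 livers and 0.27, 0.26 and 0.29 in oil livers, with overlapping groups (two-sided exact permutation test, p = 1).

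The 250 bases before each fibrinogen gene (RefSeq, GRCm38.p6) are shown since these genes varied together across the libraries. They lie at chr3:83025903-83026152 (plus strand) for Fga, chr3:83049864-83050113 (minus strand) for Fgb and chr3:83007474-83007723 (plus strand) for Fgg. Capitals mark the same motifs as above.
Fga: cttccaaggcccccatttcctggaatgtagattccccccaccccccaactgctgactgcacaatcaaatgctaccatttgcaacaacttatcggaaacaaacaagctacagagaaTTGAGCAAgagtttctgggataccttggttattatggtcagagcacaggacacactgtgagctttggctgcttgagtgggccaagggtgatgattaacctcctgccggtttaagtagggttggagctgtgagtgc
Fgb: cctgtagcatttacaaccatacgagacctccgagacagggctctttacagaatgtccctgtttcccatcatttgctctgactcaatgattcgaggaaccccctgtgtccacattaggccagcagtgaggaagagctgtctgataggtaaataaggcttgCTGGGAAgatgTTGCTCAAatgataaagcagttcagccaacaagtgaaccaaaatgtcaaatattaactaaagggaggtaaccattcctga
Fgg: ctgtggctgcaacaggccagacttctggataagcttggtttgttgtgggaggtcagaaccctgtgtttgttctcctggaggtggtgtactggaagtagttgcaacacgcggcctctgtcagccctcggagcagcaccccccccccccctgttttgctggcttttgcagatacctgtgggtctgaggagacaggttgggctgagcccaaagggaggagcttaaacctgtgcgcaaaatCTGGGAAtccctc
The interleukin-6 type element CTGGGAA stands 85 to 91 bases before the start of Fgb and 7 to 13 bases before that of Fgg. The C/EBP core stands 128 to 135 bases before Fga, in reverse, and 73 to 80 bases before Fgb. Of the 3 windows that of Fgb alone holds both motifs, and no match overlaps another. Among the 27 members with an entry, 4 hold the interleukin-6 type element (F9, Fgb, Fgg and Tfpi), which 9.10% of all promoter windows hold. The C/EBP core, held by 9.56% of all windows, is in those of 8 (F9, F11, Fga, Fgb, Ggcx, Klkb1, Kng2 and Procr). Members were counted by gene, with a match in any window of the gene, and all promoters by window. The member counts and these shares are therefore not directly comparable.

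Other genes shared the low value of CCl4 replicate 3. Serpina10, the inhibitor that works with protein Z against factor Xa, had 353, 313 and 199 CPM in CCl4 livers, against 234, 215 and 198 CPM in oil livers. CCl4 replicates 1 and 2 lay above all oil libraries and replicate 3 at the low end of them. Serpina10 was not called over all libraries (log2 fold change 0.42, SE 0.22, adjusted p = 0.191) and was called without CCl4 replicate 3, at 0.63 (adjusted p = 0.000115). Fgl1, a fibrinogen-related protein that hepatocytes release, showed the same order within the CCl4 group at a higher level, with 802, 685 and 393 CPM in CCl4 livers and 325, 275 and 190.3 CPM in oil livers. Fgl1 was called higher (log2 fold change 1.25, SE 0.35, adjusted p = 0.044), and lost the call with no filter on low counts, and without CCl4 replicate 1, CCl4 replicate 2, oil replicate 1, oil replicate 2 or oil replicate 3 (adjusted p from 0.0577 to 0.111).

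Stat3, which carries the interleukin-6 signal to the nucleus, stood at 198, 183 and 125 CPM in CCl4 livers and 159, 143 and 130.5 CPM in oil livers and was not called (log2 fold change 0.23, adjusted p = 0.366). It was called without CCl4 replicate 3, at 0.40 (adjusted p = 0.00278). In CCl4 replicate 3, 6 of 33 members were lower than the mean of CCl4 replicates 1 and 2 by more than 0.5 on the log2 scale (Fga, Fgb, Fgg, F13a1, Serpina10 and F11), which is 18.2%, against 7.34% of all genes. This was seen after the values were known and was not tested.

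**Figure D4:**
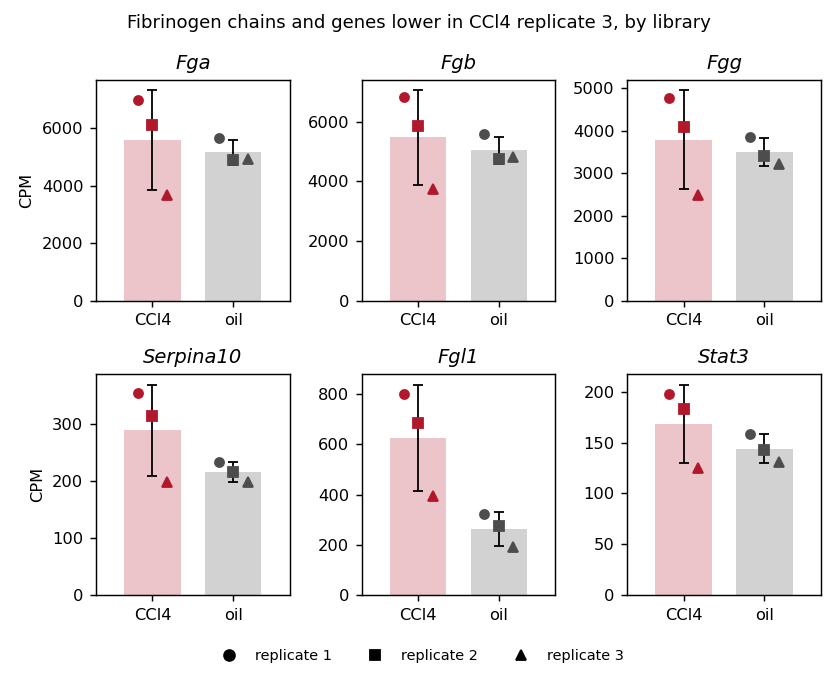
CPM of the fibrinogen chain genes, Serpina10, Fgl1 and Stat3 in each library (points; shape gives the replicate number), with the group mean (bar) and SD (error bar, n = 3). In all 6 panels CCl4 replicate 3 (triangle) is the lowest of the CCl4 libraries, and for the 3 chains it is below every oil library.

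Factor XIII, which crosslinks fibrin, has a catalytic subunit from F13a1 and a carrier subunit from F13b. F13a1 was rare, with 60, 44 and 31 counts in CCl4 livers, against 31, 14 and 16 in oil livers. On the scaled values, 3.02, 2.18 and 1.52 CPM in CCl4 livers and 1.65, 0.756 and 0.848 CPM in oil livers, the highest oil library lay above the lowest CCl4 library. F13a1 was called higher (log2 fold change 1.04, SE 0.36, adjusted p = 0.042), but lost the call in DESeq2 and in limma-voom, and without CCl4 replicate 1, CCl4 replicate 2, oil replicate 2 or oil replicate 3 (adjusted p from 0.0506 to 0.151). F13b, which hepatocytes make, had 248, 230.2 and 242 CPM in CCl4 livers and 255, 248 and 265 CPM in oil livers, with no call (log2 fold change -0.094, SE 0.058, adjusted p = 0.224). The log2 ratio of F13a1 to F13b counts was -6.36, -6.72 and -7.31 in CCl4 livers and -7.27, -8.36 and -8.29 in oil livers (two-sided exact permutation test, p = 0.2).

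All 4 further genes of fibrinogen-related and crosslinking proteins were higher, against 21.2% of all genes, with a median of 0.68. Besides Fgl1 they were Fgl2, a prothrombinase of immune and endothelial cells, at 0.78, the transglutaminase gene Tgm2 at 0.58 and its relative Tgm1 at 0.47. Tgm1 lost its call in DESeq2, and without CCl4 replicate 2, CCl4 replicate 3, oil replicate 1 or oil replicate 3 (adjusted p from 0.0612 to 0.137).

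Among the inhibitors and the protein C pathway, Proc and Proz of hepatocytes were lower, Thbd, Procr and Tfpi of other cells were higher, and so was Pros1. Protein C, once activated by thrombin on thrombomodulin, destroys factors V and VIII with protein S as its helper, and the endothelial protein C receptor holds it at the vessel wall. Proc, which encodes protein C and is made by hepatocytes, had 373, 366 and 347 CPM in CCl4 livers, against 503, 473 and 499.5 CPM in oil livers. The groups were well apart. Proc fell 1.36-fold (log2 fold change -0.44, SE 0.06, adjusted p = 0.000394).

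The receptors of that pathway were higher. Thbd, thrombomodulin, had 7.91, 6.73 and 7.66 CPM in CCl4 livers, against 4.90, 5.30 and 3.02 CPM in oil livers, and every CCl4 library lay above every oil library. It rose 1.69-fold (log2 fold change 0.76, SE 0.19, adjusted p = 0.0115). Procr, the endothelial protein C receptor, was near the lower limit of measurement, with 33, 28 and 26 counts in CCl4 livers, against 13, 16 and 18 in oil livers. Its scaled values of 1.66, 1.38 and 1.28 CPM in CCl4 livers and 0.692, 0.865 and 0.954 CPM in oil livers did not overlap, and it was called higher (log2 fold change 0.78, SE 0.26, adjusted p = 0.0352). That call was lost with no filter on low counts and in DESeq2, and without CCl4 replicate 1, CCl4 replicate 2, oil replicate 1, oil replicate 2 or oil replicate 3 (adjusted p from 0.0557 to 0.202).

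Pros1, protein S, made by hepatocytes and other cells, had 102, 97.4 and 91.2 CPM in CCl4 livers, against 84.7, 87.5 and 82.9 CPM in oil livers. It rose by a small amount without overlap (log2 fold change 0.19, SE 0.057, adjusted p = 0.0266), and the call was lost with no filter on low counts and in DESeq2, and without CCl4 replicate 1, CCl4 replicate 2, oil replicate 1 or oil replicate 3 (adjusted p from 0.0501 to 0.0975). Tfpi, which blocks factor Xa and the complex of tissue factor and factor VIIa, had 15.7, 12.8 and 13.4 CPM in CCl4 livers, against 9.95, 11.9 and 9.44 CPM in oil livers. Tfpi was higher in each CCl4 library than in any oil library (log2 fold change 0.42, SE 0.12, adjusted p = 0.0183), and lost the call without CCl4 replicate 1, oil replicate 1 or oil replicate 3 (adjusted p from 0.0711 to 0.0733).

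Proz, protein Z, the cofactor of Serpina10, stood at 409, 400.1 and 354 CPM in CCl4 livers, against 459, 431 and 465 CPM in oil livers. It fell by 0.22 (SE 0.071, adjusted p = 0.0318) and lost the call with upper quartile scaling and with library size alone, and without CCl4 replicate 2, CCl4 replicate 3, oil replicate 1 or oil replicate 3 (adjusted p from 0.0604 to 0.378). The heparin-dependent inhibitors of thrombin were not called. Serpinc1, antithrombin, had 2007, 1909 and 1997 CPM in CCl4 livers and 2133, 2074 and 2107 CPM in oil livers (log2 fold change -0.095, SE 0.06, adjusted p = 0.236). Serpind1, heparin cofactor II, had 677, 677 and 648 CPM in CCl4 livers and 610.4, 589 and 626 CPM in oil livers (log2 fold change 0.13, SE 0.059, adjusted p = 0.0961). The groups did not overlap for either gene, with CCl4 below oil for Serpinc1 and above it for Serpind1. Serpind1 was called higher with upper quartile scaling and with library size alone (adjusted p from 0.00335 to 0.0111). Exons of Serpinc1 share 34.4% of their bases with Zbtb37 on the other strand, whose row held 3565 counts in all, against 237258 for Serpinc1.

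Of 4 further tested inhibitors and regulators, 1 was higher and 3 lower (25% and 75%, against 21.2% and 20.1% of all genes). Anxa5, annexin A5, which shields membranes from clotting complexes, rose by 0.80 (SE 0.08, adjusted p = 7.29e-05). Adamts13, the protease that trims von Willebrand factor and that stellate cells make, fell to 6.30, 4.55 and 4.67 CPM in CCl4 livers, against 8.57, 7.29 and 8.64 CPM in oil livers (log2 fold change -0.66, SE 0.15, adjusted p = 0.00685). Apoh, β2-glycoprotein I, the most abundant of the list, fell by 0.19 (SE 0.061, adjusted p = 0.0338), and lost the call with upper quartile scaling and with library size alone, and without CCl4 replicate 2, oil replicate 1, oil replicate 2 or oil replicate 3 (adjusted p from 0.0587 to 0.612).

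The list of 10 endothelial markers summed to 252 to 278 CPM in CCl4 livers and 257 to 274 CPM in oil livers, and 0 were called higher and 1 lower (0 in either direction without CCl4 replicate 3). Pecam1, an adhesion protein of all endothelial cells, stood at 21.1, 17.5 and 21.0 CPM in CCl4 livers and 16.6, 19.4 and 16.0 CPM in oil livers (log2 fold change 0.20, adjusted p = 0.162). Of the endothelial products among the members, F8 and Vwf were not called. Vwf, von Willebrand factor, the protein that tethers platelets, was variable, with 11.6, 6.33 and 12.97 CPM in CCl4 livers and 11.8, 12.4 and 7.69 CPM in oil livers (log2 fold change -0.045, SE 0.31, adjusted p = 0.924, 95% interval -0.80 to 0.71). F2r, the thrombin receptor PAR1, stood at 49.1, 53.4 and 60.9 CPM in CCl4 livers and 48.8, 41.9 and 52.9 CPM in oil livers, without a call (log2 fold change 0.19, SE 0.10, adjusted p = 0.184).

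F13a1, Tfpi, Thbd and Procr, the 4 of 8 genes made outside hepatocytes that were called, stood beside higher markers of several other cell types. All 10 macrophage and monocyte markers were higher, and they summed to 739 to 833 CPM in CCl4 livers, against 221 to 285 CPM in oil livers. Cd68, a lysosomal protein of macrophages, rose by 1.92 (adjusted p = 3.91e-06). Of 10 stellate cell and fibroblast markers 8 were higher, with sums of 1173 to 1284 CPM in CCl4 livers, against 326 to 395 CPM in oil livers, and Col1a1, a collagen chain, rose by 3.83 (adjusted p = 0.000489). Cholangiocyte markers summed to 355 to 435 CPM in CCl4 livers and 138 to 173 CPM in oil livers, with 5 of 6 higher. Platelet markers summed to 6.44 to 8.06 CPM in CCl4 livers and 5.30 to 6.49 CPM in oil livers, with 1 of 3 tested higher. The part of these cells in the rises of F13a1, Tfpi, Thbd and Procr was not tested.

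**Figure D5:**
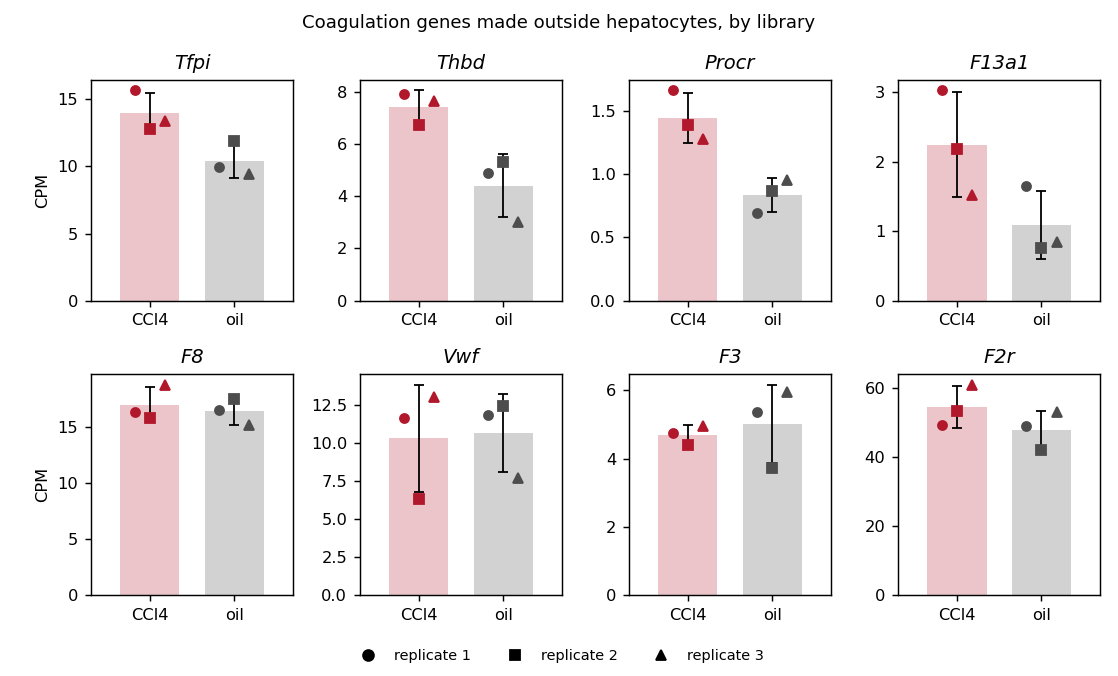
CPM of the 8 coagulation genes made mainly outside hepatocytes in each library (points; shape gives the replicate number), with the group mean (bar) and SD (error bar, n = 3). Tfpi, Thbd and Procr are higher in every CCl4 library than in any oil library. The F13a1 groups and the F2r groups each overlap by 1 oil library, and F8, Vwf and F3 overlap widely.

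Among plasmin and its regulators 1 gene of 3 was called (33.3%, against 41.3% of all genes). Plg, plasminogen, had 2159.9, 1983 and 1853 CPM in CCl4 livers and 2216, 2041 and 2174 CPM in oil livers, with overlapping groups (log2 fold change -0.10, SE 0.075, adjusted p = 0.31). Serpinf2, α2-antiplasmin, which blocks plasmin, had 1135, 1081 and 934 CPM in CCl4 livers and 969, 976 and 929.6 CPM in oil livers (log2 fold change 0.13, SE 0.079, adjusted p = 0.211), and was called higher with library size alone, and without CCl4 replicate 3 (adjusted p from 0.0128 to 0.0175). Cpb2, the carboxypeptidase that protects fibrin from plasmin, had 414, 396 and 329 CPM in CCl4 livers, against 332, 313 and 298 CPM in oil livers. CCl4 replicate 3 fell among the oil libraries. Cpb2 was called higher (log2 fold change 0.27, SE 0.089, adjusted p = 0.0345) and lost the call without CCl4 replicate 1, CCl4 replicate 2, oil replicate 1, oil replicate 2 or oil replicate 3 (adjusted p from 0.0566 to 0.126), while without CCl4 replicate 3 it was called at 0.37 (adjusted p = 0.00104).

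Of 10 further tested fibrinolysis genes, 7 were higher and 0 lower, at a median log2 fold change of 0.67. As shares these are 70% and 0%, against 21.2% and 20.1% of all genes. Plat, tissue plasminogen activator, had 5.70, 7.37 and 9.38 CPM in CCl4 livers, against 1.33, 1.08 and 0.583 CPM in oil livers (log2 fold change 2.90, SE 0.29, adjusted p = 8.92e-05). Both plasminogen activators rose. Plau, urokinase, rose by 1.01 (adjusted p = 0.00246) and its receptor gene Plaur by 2.02 (adjusted p = 0.000394). Hrg, histidine-rich glycoprotein, a plasminogen-binding plasma protein and the most abundant of the list, stood at 891, 795 and 802 CPM in CCl4 livers and 809, 712 and 769 CPM in oil livers (log2 fold change 0.12, adjusted p = 0.226). Plau and Plaur were named after their values were seen.

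The vitamin K cycle was represented by its carboxylase and its reductase. Ggcx, the carboxylase that modifies prothrombin, factors VII, IX and X and proteins C, S and Z, had 84.6, 84.3 and 79.2 CPM in CCl4 livers, against 93.7, 93.6 and 92.3 CPM in oil livers. All CCl4 libraries lay below all oil libraries, and Ggcx fell (log2 fold change -0.17, SE 0.051, adjusted p = 0.0227). The call was lost with upper quartile scaling, with library size alone and in DESeq2, and without CCl4 replicate 2, CCl4 replicate 3, oil replicate 1 or oil replicate 2 (adjusted p from 0.0512 to 0.702). Of the 7 members it modifies, Proc and Proz were lower, Pros1 was higher, and F2, F7, F9 and F10 were not called.

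Vkorc1, the reductase that warfarin blocks, had 3.53, 3.51 and 4.03 CPM in CCl4 livers and 3.46, 3.73 and 3.23 CPM in oil livers (log2 fold change 0.087, SE 0.15, adjusted p = 0.679). Its row held 418 counts over all libraries. Of its exon bases, 47.7% are also annotated to Gm21974 on the same strand, so its level may be understated if reads in shared bases were dropped. Of 11 further genes of the cycle and of other carboxylated proteins, 6 were higher and 1 lower (median 0.36). Those shares are 54.5% and 9.1%, against 21.2% and 20.1% of all genes. Prrg4, a membrane protein with a carboxylated domain, had the largest rise (log2 fold change 2.04, SE 0.38, adjusted p = 0.00228) and its relative Prrg2 the only fall (log2 fold change -0.36, SE 0.087, adjusted p = 0.00927), not called with library size alone (adjusted p = 0.112). Calu, calumenin, an inhibitor of the carboxylase, was the most abundant in CPM and rose by 0.33 (SE 0.068, adjusted p = 0.00364). Gas6, a ligand of TAM receptors, rose by 1.06, and Mgp, which restrains calcification, by 1.79.

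Within groups the members differed in spread. For 7 of 33 the SD stayed under 5% of the mean in both groups, and for 9 it passed 20% in at least 1 group. Those 9 were the fibrinogen chains, Serpina10, F11, F13a1, Thbd, F3 and Vwf.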

How the data were processed

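Liver RNA of CCl4-treated and oil-treated wild-type mice was sequenced, 3 libraries per group. The deposited table holds raw gene counts. Per the series' design text the authors removed adapters and low-quality reads and aligned with HISAT2, and per the submitters' processing notes they counted with featureCounts. The sources used here give no version, build, annotation or strand setting, and do not say how a read matching more than 1 gene was counted. Each column was matched to a sample by name. Of the 55359 Ensembl identifiers, 52083 matched a GENCODE M21 symbol, and the 443 other rows held 0.543 to 0.679% of the counts per library. Exon lengths came from GENCODE M21 and promoter sequences from RefSeq (GRCm38.p6), so levels per length assume that annotation.

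The test was edgeR 4.0.16 (R 4.3.3): filterByExpr (15579 genes), TMM scaling, glmQLFit and glmQLFTest with robust estimation, and Benjamini-Hochberg adjustment over all genes. CPM uses the TMM-scaled library. SE was taken as log2 fold change divided by √F, with 95% intervals from the t distribution. Library totals of 18929972 to 20042731 counts limit the precision of rare genes. Without molecular identifiers, counts are reads. Ratios were compared by exact permutation. On simulated data for this comparison (14853 genes after the filter) the test recovered 80.4% of 97 genes changed by 1 and 100% of 103 changed by 2 on the log2 scale, with 19 false calls among 14653. The simulation changed far fewer genes than were called in the data, and none of low expected count. It tried no change below 1, while most members changed by less, so it does not give the recovery of such changes.

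Alternatives were other scalings, other filters, DESeq2 1.42.0, limma-voom (limma 3.58.1), a block for replicate number, and leaving out each library. Members and lists were chosen with earlier results of these data known. All members are named. From each list of other pathway genes, the largest called rise and fall and the highest CPM were named, and from the marker lists Alb, Pecam1, Cd68, Col1a1 and Pf4. Stat3, Fgl2, Tgm1, Tgm2, Gas6, Mgp, Cebpa, the haemoglobin genes and the fibrinolysis genes noted were named after their values were seen, and some genes are not reported here. Libraries of a group were compared pairwise and none was a repeat of another (a chi-square of 5.71 to 25.8 per gene, above sampling noise).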

Additional observations from a re-analysis of the deposited data

How the results depend on the processing

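Leaving out 1 library gave 2 to 12 members higher and 3 to 7 lower, with 1 to 7 and 3 to 6 among those of hepatocytes, 1 to 4 higher and 0 lower among those of other cells, 19 to 23 other pathway genes higher and 8 to 11 lower, and 5229 to 6408 calls over all genes. The difference in fibrinogen share ran from 0.0729 to 0.497 percentage points, that of the log2 ratio of Kng2 to Kng1 from -0.25 to -0.13, of F13a1 to F13b from 0.96 to 1.53, and of Fga to Fgb plus Fgg from -0.023 to 0.011, which reversed without CCl4 replicate 3 (0.011) or oil replicate 3 (0.0032). With library size alone 11 members were higher and 3 lower, of them 5 and 3 of hepatocytes, and 4 other pathway genes were lower. In that fit 74.2% of the calls over all genes were higher. Upper quartile scaling gave 3 members lower, all of hepatocytes. DESeq2 gave 4 members higher, 2 of them made outside hepatocytes.

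No called member reversed in any alternative, and 13 of the 19 uncalled ones did in at least 1. With library size alone, which moves the median of all genes by 0.15, the log2 fold changes were 0.054 for F3, 0.057 for F7, 0.015 for F9, 0.058 for F2, 0.053 for F13b, 0.052 for Serpinc1, 0.044 for Plg, 0.10 for Vwf and 0.014 for Serping1. With 1 library left out they ran from -0.27 to 0.040 for F3, -0.028 to 0.099 for F8, -0.036 to 0.043 for F10, -0.25 to 0.21 for Vwf, -0.074 to 0.35 for Fga, -0.070 to 0.33 for Fgb and -0.083 to 0.34 for Fgg, where the chains were negative without CCl4 replicate 1 and highest without CCl4 replicate 3. Upper quartile scaling gave 0.041 for Vwf, no filter -0.0054 and DESeq2 -0.0020 for F10. The cause of these reversals was not tested.

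Deviations of same-numbered libraries from their group means were only weakly correlated (0.048, 0.0040 and 0.063), while 5 of 6 libraries correlated best with their own number. With so few libraries these values cannot show if the numbers pair the samples. With the replicate block 6 members were higher and 7 lower, and 6416 genes were called. Procr was then not called (0.78, adjusted p = 0.0618), and Hnf4a was called lower (-0.19, adjusted p = 0.0372). The block's mean difference for the Kng2 to Kng1 log2 ratio was -0.20 (exact sign-flip permutation, p = 0.25, the smallest possible).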

Other observations

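Platelet genes were near the lower limit of measurement: of 11 listed, 6 could be tested, 1 was higher and 1 lower. Each is 16.7% of those tested, against 21.2% higher and 20.1% lower of all genes. Pf4, a chemokine stored in platelet granules, stood at 2.57, 3.07 and 2.36 CPM in CCl4 livers, against 1.60, 0.594 and 0.583 CPM in oil livers (log2 fold change 1.52, SE 0.36, adjusted p = 0.00785). Itgb3, the β3 integrin of platelets and other cells, fell to 3.48, 3.81 and 3.19 CPM in CCl4 livers, against 5.27, 5.78 and 5.57 CPM in oil livers (log2 fold change -0.66, SE 0.14, adjusted p = 0.00397). The platelet and megakaryocyte markers summed to 6.44 to 8.06 CPM in CCl4 livers and 5.30 to 6.49 CPM in oil livers, and Gp1bb was at 0 in all libraries. The red blood cell markers summed to 231 to 250.2 CPM in CCl4 livers and 154 to 234 CPM in oil livers, with 4 of 5 called higher and 1 lower. The 4 higher ones were the haemoglobin genes Hba-a1, Hba-a2, Hbb-bs and Hbb-bt (log2 fold changes from 1.02 to 1.12), and without CCl4 replicate 3 none of them was called (1.01 to 1.06, adjusted p from 0.113 to 0.137). Of the other protease-activated receptors F2rl1 alone could be tested, at 0.857, 0.791 and 0.983 CPM in CCl4 livers and 0.799, 0.432 and 0.477 CPM in oil livers, without a call (log2 fold change 0.62, adjusted p = 0.156).

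Genes that export or clear factors V and VIII and von Willebrand factor changed in both directions, 1 of 6 higher and 2 lower. Their shares were 16.7% and 33.3%, against 21.2% and 20.1% of all genes. Mcfd2, which with Lman1 carries both factors out of the endoplasmic reticulum, rose by 0.29 (SE 0.067, adjusted p = 0.0077). Asgr2, a subunit of the asialoglycoprotein receptor of hepatocytes, fell to 119, 113 and 124 CPM in CCl4 livers, against 165, 148 and 164 CPM in oil livers (log2 fold change -0.42, SE 0.065, adjusted p = 0.000768). Lrp1, which takes up factor VIII, had the highest CPM of the list and fell to 823, 808 and 703 CPM in CCl4 livers, against 1020.2, 958 and 1093 CPM in oil livers (log2 fold change -0.40, SE 0.081, adjusted p = 0.00359). Of the transcription factors that act at clotting genes in hepatocytes, Cebpa fell by 0.32 (adjusted p = 0.0195), a call lost with upper quartile scaling and with library size alone, and without CCl4 replicate 1, CCl4 replicate 2 or oil replicate 3 (adjusted p from 0.0573 to 0.194). Hnf4a had the highest CPM of that list, at 556, 534 and 479 CPM in CCl4 livers and 603, 596 and 589 CPM in oil livers. It was not called over all libraries (log2 fold change -0.19, SE 0.068, adjusted p = 0.0517) and was called lower with no filter on low counts, in DESeq2 and in limma-voom, and without CCl4 replicate 1 (adjusted p from 0.0197 to 0.046).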
